A study of Homo sapiens with 2 samples.

Results

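The axon guidance genes studied here encode the ligands and receptors that steer growing axons. They were taken from RefSeq of GRCh38.p14 by symbol alone, a rule that uses no measured value. The set holds 70 of 20037 protein-coding genes, namely 20 semaphorins, 9 plexins, 2 neuropilins, 9 ephrins, 14 Eph receptors, 4 netrins, 5 netrin receptors (DCC and UNC5A to UNC5D), 3 SLITs and 4 ROBOs. The 9 ephrins include EFNA4-EFNA3, a readthrough gene that spans EFNA4 and EFNA3 and holds no peak of its own. The binding data are from a ChIP-seq experiment on NeuroD1 in wild-type IMR-32 cells, an established MYCN-amplified neuroblastoma line, with 1 ChIP library and no replicate. Its antibody is NeuroD1 in the labels, and the study also names this data set as NeuroD1 ChIP-seq and lists NeuroD1 antibodies among its reagents. The supplementary ChIP-seq protocol of the study names an H3K27Ac antibody instead. The peaks are called NeuroD1 peaks here after the label. The input library was not analysed here, and 1 cell line cannot stand for neuroblastoma in general. The ChIP peak list held 6183 peaks, with positions on hg38, and the sequencing depth behind it is unknown. With a single library, nothing could be tested across replicates, and intervals cover counting error only.

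NeuroD1 is a basic helix-loop-helix transcription factor that drives neuronal differentiation and binds short E-box sequences of the form CANNTG. Axon guidance works through secreted or membrane-bound cues that are read by receptors on the growth cone, the motile tip of the axon. Semaphorins signal through plexins and neuropilins, ephrins through Eph receptors, netrins through DCC and the UNC5 receptors, and SLITs through the ROBO receptors. The same families guide migrating neural crest cells, from which neuroblastoma arises.

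A NeuroD1 peak lay in 23 of the 70 axon guidance genes or within 3 kb of an end of them (32.9%, 95% exact Clopper-Pearson interval 22.1% to 45.1%). Over all 20037 protein-coding genes the share with such a peak was 21.4%. Axon guidance genes were longer, with a median length of 54.7 kb against 24.1 kb, and long genes held peaks more often. To account for this, each member was given the share of all protein-coding genes of its length bin that had a peak. The mean of these shares was 27.7%. The interval of the members lay above 21.4% and included 27.7%, so the excess over protein-coding genes of the same length was not distinguishable with 70 genes. Without the readthrough gene, 22 of 69 members had a peak (31.9%, 21.2% to 44.2%), and that interval included 21.4%. Members with a peak numbered 19 where a −log10 q of 5 or more was required (background 17.2%) and 22 among peaks of at least 5-fold (background 19.7%). By distance, 19 had one in the gene body (background 16.0%), 21 within 1 kb (background 20.1%) and 26 within 10 kb (background 25.1%). By the summit alone the count was 23 (background 21.3%), and with each peak given to its nearest gene it was 20 (background 17.8%).

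Ligand genes had a peak in 12 of 36 cases (33.3%, 18.6% to 51.0%), the readthrough gene among them. Receptor genes had a peak in 11 of 34 (32.4%, 17.4% to 50.5%). The corresponding shares over protein-coding genes of the same length bins were 25.7% and 29.9%. Ephrins had a peak in 5 of 9 genes (55.6%, 21.2% to 86.3%, length-matched share 18.6%), and in 4 of 8 without the readthrough gene (50%, 15.7% to 84.3%, length-matched share 18.4%). Eph receptors, which bind the ephrins, had a peak in 2 of 14 genes (14.3%, 1.78% to 42.8%, length-matched share 29.7%). Semaphorins had a peak in 3 of 20 genes (15%, 3.21% to 37.9%, length-matched share 27.4%) and plexins in 4 of 9 (44.4%, 13.7% to 78.8%, length-matched share 26.2%). The intervals of the semaphorins, plexins and Eph receptors included their length-matched shares, and that of the ephrins did so without the readthrough gene. For the smaller families the counts were 1 of 2 neuropilins, 2 of 4 netrins, 2 of 5 netrin receptors, 2 of 3 SLITs and 2 of 4 ROBOs. Their length-matched shares were 30.4%, 23.5%, 35.5%, 39.0% and 31.7% in the same order, each inside the interval of its family. The intervals of all 9 families overlapped, and differences between families were not tested.

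By gene length, the intervals of members and all genes stood apart only under 10 kb, and not under every setting. Of 5 members under 10 kb, 4 had a peak (80.0%, 28.4% to 99.5%), against 13.3% of protein-coding genes of that length. These were EFNA3, EFNA4, EFNB3 and NTN3, while EFNA1 had none. In the gene body alone the count was 2 of 5 (5.27% to 85.3%), without EFNA4 and NTN3, with a background of 8.18%. With each peak given to its nearest gene it was also 2 of 5, without EFNA3 and EFNA4, with a background of 9.83%, and in both cases the intervals overlapped. Where a −log10 q of 5 or more was required it was 3 of 5 (14.7% to 94.7%), without EFNA4, with a background of 10.8%. Among peaks of at least 5-fold it was the same 3, with a background of 12.5%. Within 1 kb it was also 3 of 5, without NTN3, with a background of 11.7%. In these cases the intervals of members and all genes stood apart. Between 10 and 30 kb, 5 of 20 members had a peak, with a background of 20.0%. These 5 include the readthrough gene EFNA4-EFNA3, whose peaks are those of EFNA3 and EFNA4. Between 30 and 100 kb the count was 3 of 13, with a background of 23.8%. Between 100 and 300 kb the count was 7 of 17, with a background of 30.4%. Over 300 kb it was 4 of 15 (26.7%, 7.79% to 55.1%), with a background of 43.3%. The 11 members over 300 kb without a peak were SEMA3A, SEMA5A, EPHA3, EPHA5, EPHA6, EPHB1, DCC, UNC5C, UNC5D, SLIT2 and ROBO2. ROBO2 and DCC, the longest at 1743 kb and 1196 kb, thus had no called site over their whole length.

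The members held 34 distinct peaks, 0.550% of the list. Fold enrichment, which sets the pileup of ChIP reads at a summit against the background around it, had a median of 7.19 at these peaks (95% interval of the median from the order of the peaks, 6.30 to 8.68) and ranged from 3.34 to 20.7. The median over all peaks was 6.79, which lay inside that interval. Above the 95th percentile of all peaks (13.8) lay 5 of the 34, at UNC5A, SEMA4C, PLXND1, EFNB3 and ROBO1. The number of ChIP reads under each summit, worked back from the deposited values, had a median of 18 and a range from 10 to 42, over implied backgrounds from 1.035 to 4. None of the 34 peaks was among the 112 of 6183 peaks with a background above 7. Such peaks are too rare in the list for this to set the members apart.

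**Figure D1:**
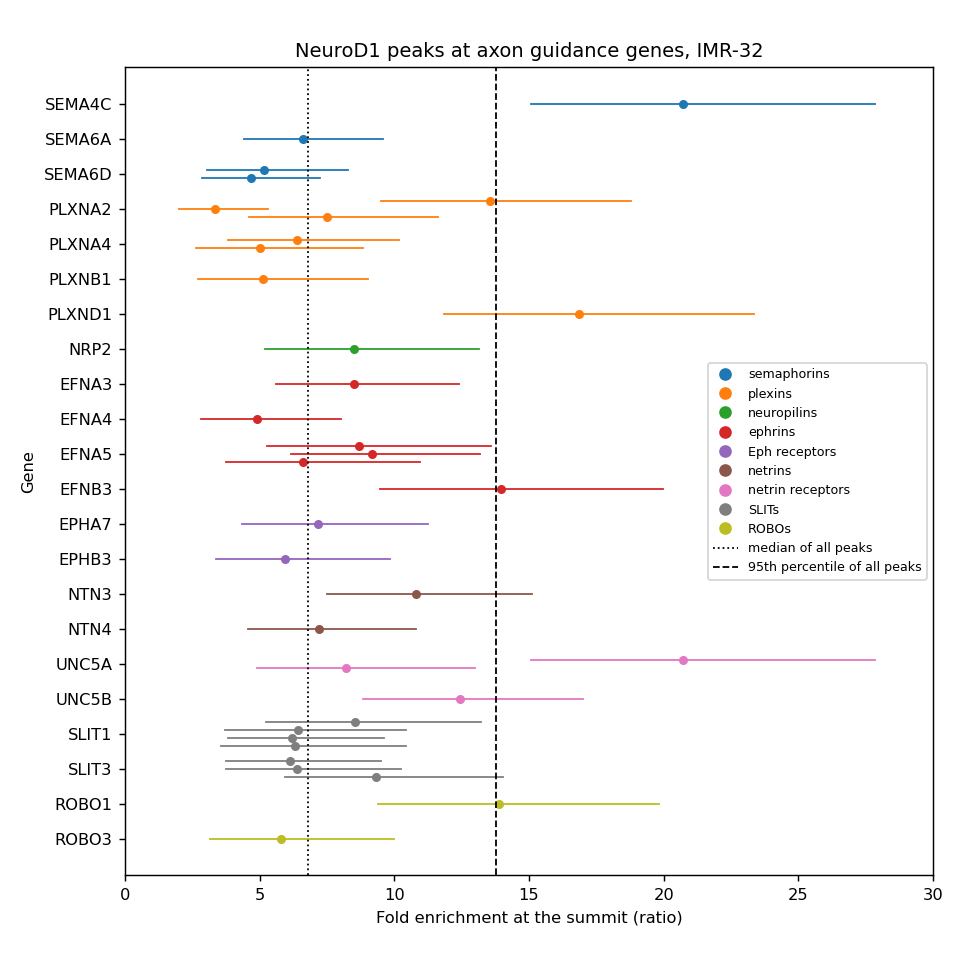
Fold enrichment at the summit of each of the 34 NeuroD1 peaks at axon guidance genes, by gene and coloured by family. Lines are 95% exact Poisson intervals of the ChIP reads with the background held fixed, and vertical lines mark the median (6.79) and the 95th percentile (13.8) of all peaks. UNC5A and SEMA4C reach 20.7, and the lowest peak is the one of 3.34-fold in PLXNA2.

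Among the netrin receptors, UNC5A and UNC5B had peaks close to a gene end, and UNC5C, UNC5D and DCC had none. DCC mediates attraction to netrins, and the UNC5 receptors mediate repulsion. The UNC5A peak on chromosome 5 from 176810104 to 176810594 had its summit 119 bp upstream of the gene start. Its fold enrichment was 20.7 (95% exact Poisson interval 15.1 to 27.8) from 42 ChIP reads (30.3 to 56.8). The −log10 q was 45.7, and the peak ranked 81 of 6183 by fold enrichment. A second UNC5A peak, 20742 bp inside the gene from 176831070 to 176831432, had a fold enrichment of 8.20 (4.89 to 13.002) and 16 reads. The intervals of the 2 peaks did not overlap, so the start of UNC5A was the stronger site. The UNC5B peak spanned 71212299 to 71212579 on chromosome 10 and reached 12.4-fold (8.84 to 16.99) with 37 reads. Its summit lay 133 bp outside one end of the gene, and the strand of UNC5B was not in the tables used here.

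Among the netrins, NTN3 and NTN4 had a peak, while NTN1, the classical attractant of the midline, and NTN5 had none. The NTN3 peak lay beside the gene, with a gap of 2171 bp, and had a fold enrichment of 10.8 (7.48 to 15.1) and 32 reads. Its summit was also 760 bp upstream of the start of the antisense transcript TEDC2-AS1. NTN4 had a peak of 7.19-fold (4.58 to 10.8) inside the gene, 115928 bp from its nearest listed start.

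SLIT1 and SLIT3, secreted repellents, had several peaks each, all of them inside the genes. SLIT1 had 4 peaks, the highest number at any member, of 8.54-fold (18 reads), 6.40-fold (14 reads), 6.21-fold (18 reads) and 6.30-fold (13 reads). Their summits lay 69217, 66528, 36631 and 6043 bp downstream of the SLIT1 start, and their fold intervals all overlapped. The first pair of these summits was 2689 bp apart, and the last peak also lies in the readthrough gene ARHGAP19-SLIT1. In SLIT3, 3 peaks lay deep in the gene, 530895, 527742 and 512954 bp from its start, with fold enrichments of 6.12, 6.38 and 9.33. Neighbouring SLIT3 summits were 3153 and 14788 bp apart, and the first peak was 1898 bp from MIR218-2, the microRNA gene hosted by SLIT3. No peak lay at the start of SLIT1 or SLIT3, and SLIT2, which hosts the related MIR218-1, had no peak.

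Of the ROBO receptors, ROBO1 had a peak of 13.9-fold (9.38 to 19.8, 28 reads) at positions 79019373 to 79019700 of chromosome 3. RefSeq lists 2 starts for ROBO1, and the summit lay 2 bp from the inner one, which is 749 kb inside the gene. No peak was called at the outer start. ROBO3, a receptor of commissural axons, had a peak of 5.79-fold (3.14 to 9.97) with 11 reads, 257 bp from an inner start. ROBO2 and the endothelial receptor ROBO4 had none.

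**Figure D2:**
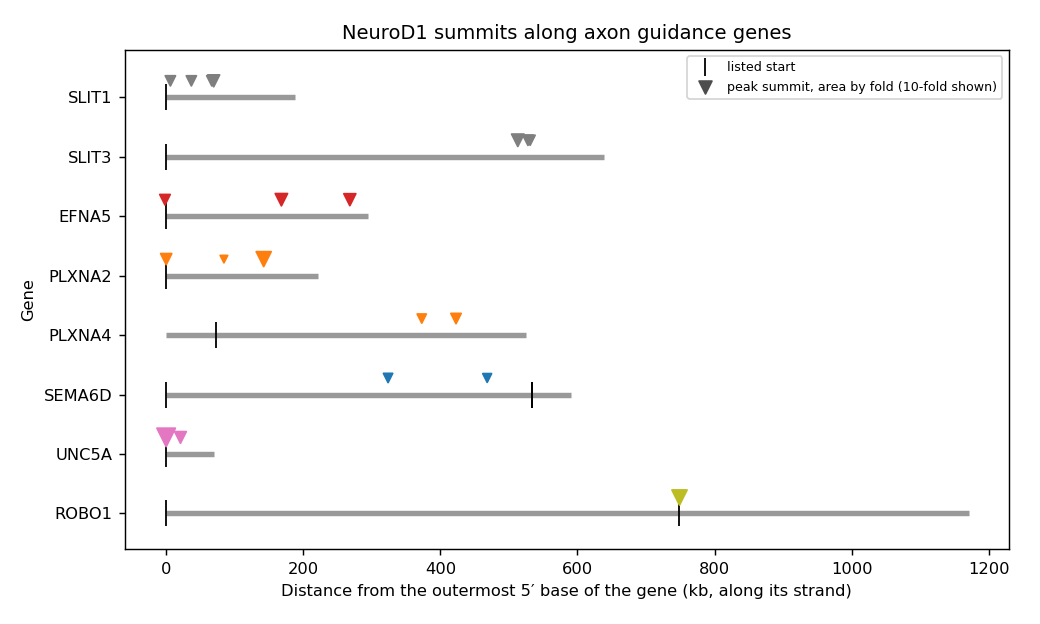
NeuroD1 summits (triangles, area scaled to fold enrichment and colour by family) along 8 axon guidance genes, drawn as bars from the outermost 5′ base, with distance in kb along the strand of each gene and vertical ticks for the starts that RefSeq lists. SLIT1 and SLIT3 have 4 and 3 summits away from their starts, and the ROBO1 summit coincides with the inner start at 749 kb.

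Among the ephrins, EFNB3, a membrane-spanning ligand, had the highest fold enrichment, at 13.97 (9.45 to 19.98) with 28 reads. This peak, on chromosome 17 from 7705010 to 7705275, had its summit 59 bp outside one end of EFNB3 and also lay within 3 kb of WRAP53. EFNA5, a lipid-anchored ligand, had 3 peaks spread over the gene, of 8.68-fold, 9.15-fold and 6.61-fold, with summits 267868 and 168031 bp downstream and 1850 bp upstream of its start. EFNA3 had a peak of 8.50-fold (5.62 to 12.4) inside the gene, 6117 bp from its start. The EFNA4 peak was weak, with 4.91-fold (2.83 to 8.01), 14 reads and a rank of 5494, and its summit lay 87 bp upstream of the start, also within 3 kb of ADAM15. EFNA1, EFNA2, EFNB1 and EFNB2 had none. The 2 Eph receptors with a peak were EPHA7 (7.18-fold, 4.35 to 11.2, 17 reads) and EPHB3 (5.94-fold, 3.36 to 9.85, 13 reads), with summits 115 bp and 80 bp upstream of their starts. EPHA1, EPHA2, EPHA3, EPHA4, EPHA5, EPHA6, EPHA8, EPHA10, EPHB1, EPHB2, EPHB4 and EPHB6 had no peak.

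Of the semaphorins, 17 of 20 had no peak. The 7 class 3 semaphorins, secreted cues read mainly by neuropilins, had none (0% to 41.0%), and this interval included the length-matched share of 28.3%. SEMA4C had the same fold enrichment as UNC5A (20.7, 15.1 to 27.8). The deposited p-values of both peaks were also equal, so the 42 reads and the background worked back from them were the same. The SEMA4C peak, on chromosome 2 from 96857869 to 96858285, lay past the 3′ end of the gene with a gap of 1433 bp. Its summit was 12025 bp from the nearest listed start of SEMA4C and 39 bp upstream of the start of the neighbouring gene ANKRD39. SEMA4C lost this peak in the gene body alone, within 1 kb and with the nearest gene only. SEMA6A had a peak of 6.62-fold (4.41 to 9.58, 26 reads) with its summit 27 bp outside one end of the gene, where the antisense transcript SEMA6A-AS2 also lies. SEMA6D had 2 peaks inside the gene, of 5.16-fold and 4.66-fold, both below the lower quartile of all peaks (5.79). SEMA4A, SEMA4B, SEMA4D, SEMA4F, SEMA4G, SEMA5A, SEMA5B, SEMA6B, SEMA6C and SEMA7A had no peak.

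On the receptor side, PLXND1, a plexin that SEMA3E can bind without neuropilins, had a peak inside the gene on chromosome 3 from 129577404 to 129577843. It had a fold enrichment of 16.9 (11.8 to 23.4) and 34 reads, and its summit lay 29072 bp downstream of the start. PLXNA2 had 3 peaks, of which the strongest (13.6-fold, 9.50 to 18.8, 34 reads) lay 142185 bp inside the gene. A peak of 7.49-fold (4.60 to 11.6) had its summit 70 bp upstream of the PLXNA2 start. The third PLXNA2 peak, 84178 bp inside the gene, was the weakest of all member peaks at 3.34-fold (1.99 to 5.29), over the highest background of 4. The fold intervals of the strongest and the weakest PLXNA2 peak, which hold the background fixed, did not overlap. Their read intervals did overlap, at 23.5 to 47.5 and 9.15 to 26.0 reads. PLXNA4 had 2 peaks of 6.40-fold and 5.02-fold, 350580 and 300581 bp downstream of its listed start. PLXNB1 had 1 of 5.12-fold (2.70 to 9.02), 280 bp upstream of a listed start and also within 3 kb of CCDC51. NRP2, a coreceptor of class 3 semaphorins, had a peak of 8.48-fold (5.21 to 13.1) inside the gene, 73167 bp from its start, while NRP1 had none. PLXNA1, PLXNA3, PLXNB2, PLXNB3 and PLXNC1 also had no peak.

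Peaks at axon guidance genes lay mostly away from gene starts. Starts were listed for 60 of the 70 members and for 79.1% of all protein-coding genes. Where they were, 8 of 30 member peaks had a summit within 1 kb of a start (26.7%, 12.3% to 45.9%), with a background of 57.5% over 4602 pairs of a peak and a protein-coding gene. In genes under 100 kb the share was 5 of 9 for members (55.6%, 21.2% to 86.3%) and 68.0% for all. In genes of 100 kb or more it was 3 of 21 (14.3%, 3.05% to 36.3%), against 35.8% (33.4% to 38.3%). The intervals of members and all genes stood apart over all lengths and overlapped in both length classes, and peaks of 1 gene share their source. Counted without strand, 9 of 34 member peaks lay within 1 kb of either gene end (26.5%, 12.9% to 44.4%), with a background of 53.3%. With the limit at 3 kb from a listed start the count was 9 of 30, with a background of 63.5%, and where a −log10 q of 5 or more was required it was 5 of 23 within 1 kb, with a background of 57.2%.

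**Figure D3:**
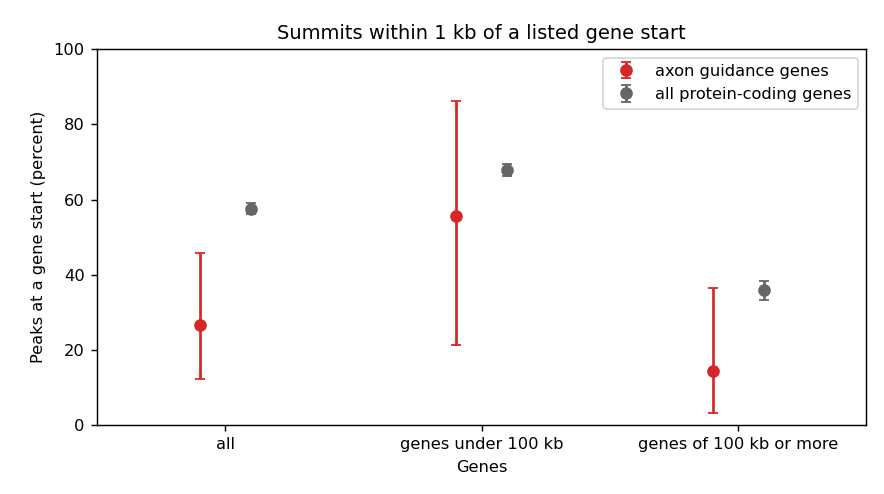
Percent of peaks with a summit within 1 kb of a listed gene start, at axon guidance genes and at all protein-coding genes, for all gene lengths and for genes under and of at least 100 kb, with 95% exact Clopper-Pearson intervals. Members had 26.7% against 57.5% over all lengths and 14.3% against 35.8% in the longer genes.

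Several members held more than 1 peak. Without the readthrough gene, 7 of the 22 members with a peak had 2 or more (31.8%, 13.9% to 54.9%), namely SLIT1, SLIT3, EFNA5, PLXNA2, PLXNA4, SEMA6D and UNC5A. Of all protein-coding genes 4.42% had 2 or more peaks, which is 20.7% of those with a peak. Per length, however, member genes held fewer peaks, with 0.228 peaks per 100 kb of gene and flanks (95% exact Poisson interval 0.158 to 0.318) against 0.394 over all protein-coding genes. In members of 300 kb or more the density was 0.0765 per 100 kb (0.0330 to 0.151, 8 peaks), against 0.141 (0.130 to 0.152) in all genes of that length. In members of 100 to 300 kb it was 0.428 (0.234 to 0.719, 14 peaks), against 0.264 (0.249 to 0.280). At equal length, the intervals of members and all genes overlapped in both classes.

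Promoter sequences were available for members whose start is listed, as windows of 300 bases from 250 before to 50 after each start. A NeuroD1 summit lay in 6 of 91 member windows (6.59%, 2.46% to 13.8%), with a background of 9.17% over 22078 windows of protein-coding genes. The 250 bases before the start of these 6 are shown, because they hold the summits near the starts of UNC5A, ROBO1, PLXNA2, EPHA7, EPHB3 and EFNA4. They are from RefSeq, GRCh38.p14, left out for the readthrough gene, which shares the EFNA4 start, and run 5′ to 3′ on the strand of the gene, with any CANNTG E-box in capitals.
UNC5A, chr5:176810309-176810558, forward strand: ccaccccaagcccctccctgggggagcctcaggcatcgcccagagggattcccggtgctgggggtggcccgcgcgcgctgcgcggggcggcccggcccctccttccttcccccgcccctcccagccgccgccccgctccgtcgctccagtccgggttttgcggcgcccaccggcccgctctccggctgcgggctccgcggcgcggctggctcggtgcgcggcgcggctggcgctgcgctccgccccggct
ROBO1, chr3:79019460-79019709, reverse strand: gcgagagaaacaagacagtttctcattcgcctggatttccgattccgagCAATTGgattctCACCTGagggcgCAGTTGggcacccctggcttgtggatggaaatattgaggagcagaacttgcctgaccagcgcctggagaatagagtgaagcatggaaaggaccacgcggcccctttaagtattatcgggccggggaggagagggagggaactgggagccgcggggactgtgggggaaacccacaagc
PLXNA2, chr1:208244385-208244634, reverse strand: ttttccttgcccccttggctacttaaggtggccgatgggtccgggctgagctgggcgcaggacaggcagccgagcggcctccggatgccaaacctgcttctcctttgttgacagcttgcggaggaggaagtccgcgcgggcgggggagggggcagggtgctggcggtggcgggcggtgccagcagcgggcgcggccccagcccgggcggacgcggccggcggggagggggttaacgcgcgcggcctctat
EPHA7, chr6:93419560-93419809, reverse strand: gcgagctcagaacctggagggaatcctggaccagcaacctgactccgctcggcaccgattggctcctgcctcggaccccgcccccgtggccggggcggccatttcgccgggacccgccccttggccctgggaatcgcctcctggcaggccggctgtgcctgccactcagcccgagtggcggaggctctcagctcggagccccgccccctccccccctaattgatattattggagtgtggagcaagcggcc
EPHB3, chr3:184561535-184561784, forward strand: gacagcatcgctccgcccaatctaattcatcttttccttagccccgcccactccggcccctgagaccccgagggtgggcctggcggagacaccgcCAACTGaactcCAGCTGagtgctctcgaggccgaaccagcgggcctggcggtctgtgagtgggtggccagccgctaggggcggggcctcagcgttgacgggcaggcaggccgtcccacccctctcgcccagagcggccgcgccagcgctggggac
EFNA4, chr1:155063490-155063739, forward strand: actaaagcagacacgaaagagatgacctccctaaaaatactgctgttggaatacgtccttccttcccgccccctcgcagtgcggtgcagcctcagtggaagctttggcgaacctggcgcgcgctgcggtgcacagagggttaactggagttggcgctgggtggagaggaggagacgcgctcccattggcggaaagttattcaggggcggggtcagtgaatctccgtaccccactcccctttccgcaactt

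CANNTG was found in 2 of the 6 windows, at EPHB3 and ROBO1 (4.33% to 77.7%). It was in 65.1% of all windows of the same length and in 57.0% of those with a summit, both inside that interval. CANNTG reads the same on both strands and includes the other motifs searched. At EPHB3, CAACTG began 155 bases before the start, with its centre 72.5 bases from the summit. The second EPHB3 motif was CAGCTG, 144 bases before the start and 61.5 bases from the summit. In the ROBO1 window, CAATTG began 201 bases before the start. It was followed by CACCTG at 189 bases and by one CAGTTG at 177 bases. A further CAATTG at ROBO1 spanned the start, with its centre 3.5 bases from the summit, and it is not marked because it runs past the printed bases. CAGATG, searched on both strands, was in 0 of the 6 windows (0% to 45.9%) and in 12.2% of all windows. CAGCTG was in 1 of 6 (0.421% to 64.1%) and in 18.0% of all windows. Both intervals included the share of all windows, so 6 windows cannot show a lack of either motif. Over all protein-coding genes, CAGATG on either strand was in 8.54% of the 2025 windows with a summit (7.36% to 9.85%) and in 12.6% of the 20053 without one (12.1% to 13.03%). CAGCTG was not lower, with 19.1% in windows with a summit (17.4% to 20.9%) and 17.9% without one (17.4% to 18.4%), and these intervals overlapped. For CANNTG the shares were 57.0% with a summit and 65.9% without one. These windows hold only the summits close to a listed start, and motifs around the other summits were not searched. The windows with a summit had a median GC content of 68.0%, against 61.7% without, and the 6 member windows ranged from 56.7% at ROBO1 to 80.7% at UNC5A. GC content thus differed between the same windows as the CAGATG share, and its part in that share was not tested.

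Other genes of guidance signalling were taken as a list of 65, chosen without a symbol rule and with earlier results of these data known. The list holds further cues and receptors, cytoplasmic adaptors, GTPase regulators and actin effectors. A peak lay at 27 of the 65 genes (41.5%, 29.4% to 54.4%), against 21.4% of all protein-coding genes and 30.1% at the same lengths. The interval of this list reaches down to 29.4%, just below the length-matched share. Where a −log10 q of 5 or more was required the count was 21 of 65 (32.3%), with a background of 17.2%. In the gene body alone it was 22 of 65 (33.8%), with a background of 16.0%. Both of these backgrounds are over genes of all lengths. The highest fold enrichments were 13.5 at SRGAP3 (27 reads), a GTPase-activating protein of the SLIT-ROBO pathway, and 13.5 at NEO1 (34 reads), the neogenin receptor related to DCC. FYN, a kinase downstream of netrin and ephrin receptors, had 4 peaks, the highest of 12.9-fold with its summit 1 bp from a listed start. That highest FYN peak also lay within 3 kb of LOC102724646. SRGAP2, another GTPase-activating protein that binds ROBO1, had a peak of 11.1-fold (22 reads) that also lay within 3 kb of FAM72A. RND1, a small GTPase that acts on plexins, had a peak of 9.81-fold.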

How the data were processed

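The analysis started from the peak list of 1 NeuroD1 ChIP library of IMR-32 cells. The submitters' processing notes name BWA 0.7.17, MACS2 2.2.7 and hg38, whereas the peak names carry macs3. In the deposited list, fold enrichment is a ratio, (pileup + 1) over (local background + 1). The authors' list also holds the p-value and q-value of each peak on a −log10 scale, and the deposited score is a whole-number form of the −log10 q. The authors' last column, fold enrichment over peak width, was not used. The library's total reads are not in the file.

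Members and lists were chosen with earlier results of these data known. Genes and promoter windows came from RefSeq GRCh38.p14, the same build. Positions count from 1. The table of genes has no strand, so starts and strands came from the promoter windows.

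ChIP reads and background at each summit were solved from the fold enrichment and −log10 p with the Poisson formula of MACS. The weight of 1 read, 0.98, was found from the list, where 99.3% of the peaks used had a pileup within 0.01 of a whole number of reads, against 11.6% at the next best weight between 0.9 and 1.1. In 6182 of 6183 peaks a solution was found, and 6 of them, none at a member, had 2. On 1000 peaks simulated with the same formula and weight, the solver gave back 99.9% of the reads and 99.9% of the backgrounds within 1 percent. The simulated backgrounds covered a narrower range than those of the list. This checks the solver only, and not whether the deposited values follow that formula.

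Shares carry exact Clopper-Pearson intervals, and read numbers and densities exact Poisson intervals, at 95%. Length bins were under 10, 10 to 30, 30 to 100, 100 to 300 and over 300 kb. No test was run. Every member with a peak was described by its peak of highest fold enrichment, and members with 2 or more peaks by all of them. Of the 65 other pathway genes the 5 with the highest fold enrichment were named. The E-box share around all summits was not run, because no genome sequence was used. Alternatives were stricter peak lists, other distances, the summit in place of the peak, the nearest gene only and 10 length bins. Scripts ran in Python 3.11.15 (scipy 1.17.1, pandas 2.3.3, numpy 2.4.6), and matplotlib 3.10.9 drew the figures.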

Additional observations from a re-analysis of the deposited data

How the results depend on the processing

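The number of axon guidance genes with a peak, 23 of 70, lay between 19 and 26 under its alternatives, all inside the interval of its share. With a −log10 q of at least 5 it was 19, without EFNA4, PLXNB1, ROBO3 and SEMA6D, and 22 among peaks of at least 5-fold, without EFNA4. In the gene body alone it was 19, without EFNA4, EPHB3, NTN3 and SEMA4C, and within 10 kb it was 26, with EFNA2, NTN5 and ROBO4 added. Counting each peak for its nearest protein-coding gene gave 20, without EFNA3, EFNA4 and SEMA4C. The length-matched share of protein-coding genes, 27.7%, moved to 22.7% with a −log10 q of at least 5, 25.7% for peaks of at least 5-fold, 22.9% in the gene body alone, 26.8% within 1 kb and 30.7% within 10 kb, as stricter or wider counting makes it, and to 26.9% with 10 length bins. Without the readthrough gene the members' interval no longer lay above the share of all protein-coding genes. The 4 of 5 members under 10 kb became 2 in the gene body alone or with the nearest gene only, where the interval overlapped that of all genes. Both the alternative without the readthrough gene and those for genes under 10 kb were chosen after seeing the data. The alternatives for the E-box share around summits were not run, since no genome sequence was used. No paired analysis was possible because only a single ChIP library gave values. The low number of reads at most member summits limits any ranking among them. Reads were as low over the whole list, with a median of 17 over all peaks and 18 at member peaks.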

Other observations

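Of the 47 axon guidance genes without a peak, 12 had one within 50 kb (25.5%, exact 95% limits 13.9% and 40.3%). Of all protein-coding genes without a peak, 23.7% had one within that distance. The nearest peaks outside the limit of 3 kb were at NTN5 (6.42 kb away, 13.3-fold), ROBO4 (7.01 kb, 5.79-fold) and EFNA2 (8.55 kb, 5.79-fold). The peak nearest to ROBO4 was the ROBO3 peak, and that nearest to EFNA2 lay at CIRBP and FAM174C. Just inside the limit were the peaks at NTN3 (2171 bp away), EFNA5 (1740 bp) and SEMA4C (1433 bp). Among members without a peak, a strong site lay 22.0 kb from SEMA6B, with a fold enrichment of 21.2 and 43 ChIP reads, at the uncharacterised gene LOC105372249. The same peak, at GNAI2 (8.09-fold, 17 reads), was the nearest to both SEMA3B (24.1 kb away) and SEMA3F (46.8 kb).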
